A study of Sus scrofa with 16 samples.

Results

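The transcripts of *ITGB1*, *ITGB3* and *VCAM1* were followed through porcine satellite cells (SCs), the resident stem cells of skeletal muscle. *ITGB1* and *ITGB3* encode the integrin beta-1 and beta-3 subunits, and *VCAM1* encodes vascular cell adhesion molecule 1. They were chosen by name, with earlier results of these data known, and they are 3 of the 3875 genes in the count table. DMD piglets lack exon 52 of the dystrophin gene *DMD*, and WT piglets were their healthy counterparts. All were male and 3 days old, and the SCs came from the intercostal muscle of 4 animals per genotype.

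Each animal gave 1 culture in differentiation (DIFF) and 1 in proliferation (PROL), so that 16 samples formed the groups DMD DIFF, WT DIFF, DMD PROL and WT PROL. Both states were harvested at passage 6. PROL cells were kept in growth medium with basic fibroblast growth factor. DIFF cells were kept in medium with reduced serum for 10 days by the sequencing methods and for 7 days by the culture methods. Cells were enriched on magnetic columns, first by depletion of CD31 and CD45, the products of *PECAM1* and *PTPRC*, and then by selection with antibodies against integrin beta-1, NCAM1 and M-cadherin. *ITGB1* therefore encodes one of the antigens by which cells of every group were selected before culture. Cells of later passages on collagen are a culture model, and they are away from the fiber and from blood cells.

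Integrins are receptors made of 1 alpha and 1 beta subunit that tie the extracellular matrix to the actin cytoskeleton. The beta-1 subunit pairs with many alpha subunits, and with alpha-7 it forms the laminin receptor of muscle fibers, which anchors the membrane beside the dystrophin complex. The beta-3 subunit pairs with alpha-V, a receptor for vitronectin, fibronectin and osteopontin, and with alpha-IIb on platelets. VCAM1 stands on the other side of such contacts. It is a cell surface protein of the immunoglobulin family that binds alpha-4/beta-1 integrin on leukocytes, is induced in endothelium by cytokines through NF-κB, and has been placed in myoblast fusion in mice.

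Samples held 1110050 to 1781174 counts, and the median sample of a group held 1461363 for DMD DIFF, 1624003 for WT DIFF, 1580606 for DMD PROL and 1307695 for WT PROL. The ribosomal RNA *RN18S* took 6.32% to 20.4% of the counts. The *DMD* gene had 30 to 48 counts per DMD DIFF sample and 12 to 22 per WT DIFF sample. It had 24 to 32 per DMD PROL sample and 6 in each WT PROL sample. Tags of this method come from transcript ends and not from the deleted exon, so the level of *DMD* does not check the genotype. Of 15 markers of satellite cells and myoblasts, 10 were in the table. Their summed level was 2017 to 2390 CPM (counts scaled to library size) in DMD DIFF, 258 to 432 CPM in WT DIFF, 1255 to 1820.5 CPM in DMD PROL and 90.3 to 122 CPM in WT PROL. Of these markers *MYF5* had no count in WT samples of either state, and *CXCR4* had none in any group. The genes *PAX7*, *PAX3*, *ITGA7*, *NCAM1*, *CDH15* and *PTPRC* are not analysed here. Most of the marker sum was *DES*, which encodes desmin, at means of 2057 CPM in DMD DIFF and 271 CPM in WT DIFF. Its means in PROL were 1170 CPM in DMD and 71.0 CPM in WT. In DMD SCs *MYF5* averaged 6.82 CPM in DIFF and 4.71 CPM in PROL, and *MYOD1* 2.47 CPM and 8.11 CPM. *SDC4* was lower in DMD, at 2.63 against 6.51 CPM in DIFF and 2.53 against 4.03 CPM in PROL. The sum of these markers of the labelled cell type was thus higher in DMD SCs and low in WT SCs.

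*ITGB1* was higher in DMD SCs than in WT SCs in DIFF, and not detectably different in PROL. *ITGB3* was lower in DMD SCs in both states, and so was *VCAM1*. *VCAM1* also stood higher in DIFF than in PROL in WT SCs. All 3 genes passed the filter on low counts in every comparison. *ITGB3* had 4 to 12 counts per DMD PROL sample and 6 to 26 per DMD DIFF sample. In the genotype comparisons it therefore passed through the WT samples, so passing says nothing about its level in DMD SCs. Calls needed both an edgeR adjusted *p* under 0.05 and a change of over 0.6 on the log2 scale, up or down. By this rule 3 members were called between DMD and WT in DIFF, where 33.6% of all tested genes were called. In PROL 2 members were called, against 18.2% of all tested genes. Between DIFF and PROL the call was reached by 0 members in DMD SCs and 1 in WT SCs, against backgrounds of 28.4% and 32.2%. The genotype effect differed between the states for 2 members, against 23.4% of all tested genes. Since the members were chosen with earlier results known, these shares give context and are no test of the members.

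**Figure D1:**
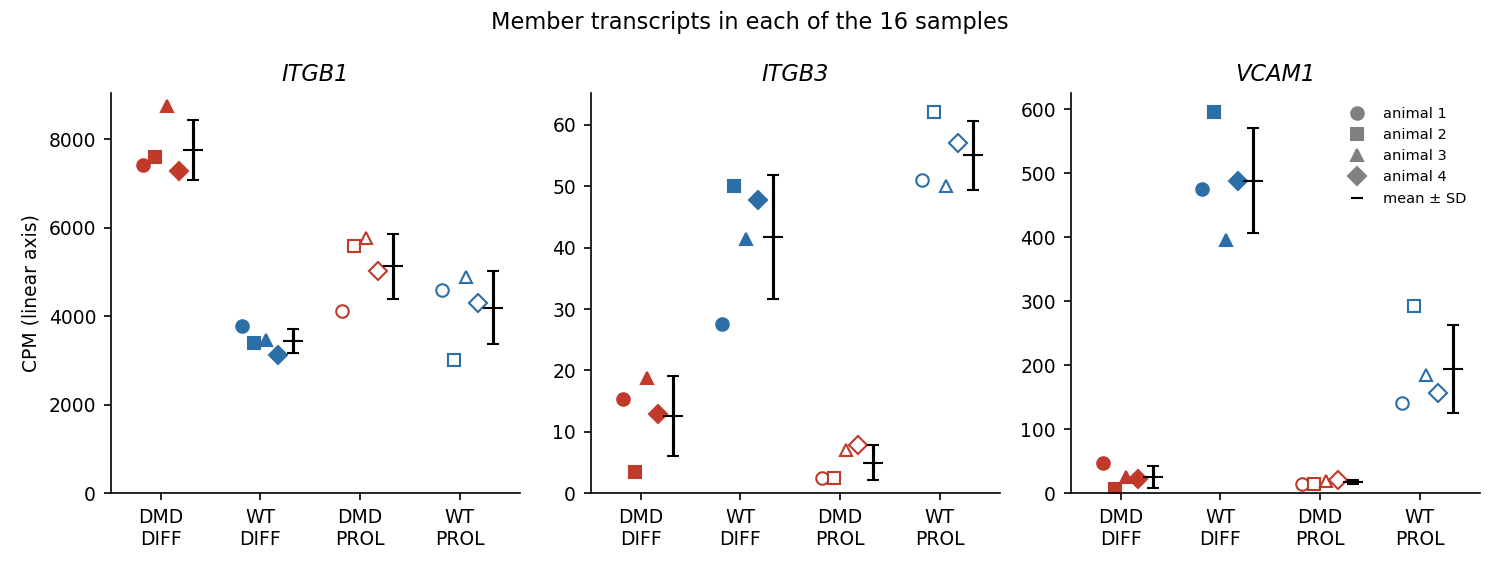
Level of each transcript in CPM (linear axis from 0) in the 16 samples of DMD DIFF, WT DIFF, DMD PROL and WT PROL; each point is 1 sample, shapes mark the animals of a genotype, filled points are DIFF and open points PROL, and bars are the mean ± SD of 4 samples. The DMD DIFF samples of *ITGB1* lie between 7275 and 8748 CPM and the WT DIFF samples between 3126 and 3788 CPM, while *ITGB3* and *VCAM1* show the reverse order of genotypes in both states.

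*ITGB1* was abundant in all cultures. In DMD DIFF its level was 7415, 7608, 8748 and 7275 CPM in replicates 1 to 4, against 3788, 3402, 3458 and 3126 CPM in WT DIFF. The lowest DMD sample lay well above the highest WT sample. The means were 7761 ± 672 CPM in DMD DIFF and 3444 ± 272 CPM in WT DIFF (SD, n = 4 each), a ratio of 2.25. The fitted log2 fold change was 1.16 (SE 0.09), with an edgeR adjusted *p* of 4.46e-08.

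In PROL the genotypes overlapped for *ITGB1*. DMD PROL samples had 4128, 5583, 5763 and 5032 CPM, and WT PROL samples had 4582, 3004, 4889.95 and 4294 CPM. Sample 1 of DMD PROL was below 3 of the 4 WT samples, and sample 2 of WT PROL was the lowest of all. The means were 5126 ± 735 CPM in DMD PROL and 4192.5 ± 829 CPM in WT PROL. The log2 fold change of 0.28 (SE 0.15) missed the threshold (edgeR adjusted *p* = 0.189).

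Ordered by level, *ITGB1* was highest in DMD DIFF, followed by DMD PROL, WT PROL and WT DIFF. DMD DIFF did not overlap with DMD PROL, and the log2 fold change between these states was 0.59 (SE 0.10) with an edgeR adjusted *p* of 0.000169. This gene missed the call by the size of the change alone, and it sat so close to that limit that leaving out sample 2 or 3 of DMD PROL (0.63 and 0.65), or sample 2 or 4 of DMD DIFF (0.61 and 0.63), gave a call. DMD PROL and WT PROL did not differ beyond their spread, nor did WT PROL and WT DIFF. Between the states of WT SCs the log2 value was −0.30 (SE 0.13), with an edgeR adjusted *p* of 0.0661. The genotype effect in DIFF exceeded that in PROL by 0.88 on the log2 scale (SE 0.18, edgeR adjusted *p* = 0.000719, all 16 samples).

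*ITGB3* was a transcript of few counts, and its levels rest on 4 to 26 counts per sample in DMD SCs and 40 to 100 in WT SCs. In DMD PROL its level was 2.46, 2.53, 6.99 and 7.88 CPM, against 51.0, 62.1, 50.0 and 57.0 CPM in WT PROL. Each WT sample was far above every DMD sample, and the means were 4.97 ± 2.88 CPM in DMD PROL and 55.0 ± 5.63 CPM in WT PROL. Pooled, DMD PROL had 32 counts and WT PROL 336. Each divided by the summed library totals of its group, their ratio was 0.0813, with a 95% counting interval of 0.0547 to 0.117. All deposited values are even numbers, for which no reason is given. With each value halved, this interval runs from 0.0454 to 0.136. These intervals cover counting error alone.

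In DIFF the gap in *ITGB3* was narrower. DMD DIFF samples had 15.4, 3.5, 18.7 and 12.8 CPM, and WT DIFF samples had 27.5, 50.1, 41.4 and 47.7 CPM. Sample 2 was the lowest of DMD DIFF and sample 1 the lowest of WT DIFF, and the groups did not overlap. The mean was 12.6 ± 6.54 CPM in DMD DIFF and 41.7 ± 10.1 CPM in WT DIFF. The pooled counts were 72 in DMD DIFF and 242 in WT DIFF, and their ratio after the same division by library totals was 0.319, with a 95% counting interval of 0.242 to 0.417. The log2 fold change was −1.75 in DIFF (SE 0.37, edgeR adjusted *p* = 0.000913) and −3.46 in PROL (SE 0.32, edgeR adjusted *p* = 1.15e-06).

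The order of *ITGB3* levels ran from WT PROL through WT DIFF and DMD DIFF to DMD PROL. The WT states touched, with 50.1 CPM as the highest WT DIFF sample and 50.0 CPM as the lowest WT PROL sample, and their log2 fold change of −0.42 (SE 0.21) had an edgeR adjusted *p* of 0.118. Between DMD DIFF and DMD PROL the means were 12.6 CPM and 4.97 CPM with overlapping samples, and the log2 fold change of 1.30 (SE 0.54) had an edgeR adjusted *p* of 0.0624. With the animal as a replicate block this change was called, at 1.31 with an edgeR adjusted *p* of 0.0372. It was also called without sample 2 of DMD DIFF, at 1.64 with an edgeR adjusted *p* of 0.0166. The genotype effect in DIFF was less negative than that in PROL by 1.71 on the log2 scale (SE 0.54, edgeR adjusted *p* = 0.0186). Without sample 3 of DMD DIFF the difference was 1.45 with an edgeR adjusted *p* of 0.0564. Without both samples of DMD animal 1 it was 1.36 with an edgeR adjusted *p* of 0.0922.

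In DIFF *VCAM1* had the widest gap between genotypes of the 3 genes. In DMD DIFF its level was 47.6, 7.00, 24.5 and 22.8 CPM, against 475, 596, 396 and 488 CPM in WT DIFF. The WT samples were all high and close to each other, while the DMD samples spread widely, with sample 1 the highest and sample 2 the lowest. The means were 25.5 ± 16.7 CPM in DMD DIFF and 489 ± 81.9 CPM in WT DIFF, so that WT exceeded DMD 19.2-fold. The pooled counts were 146 in DMD DIFF and 2826 in WT DIFF, and their ratio after division by library totals was 0.0554, with a 95% counting interval of 0.0466 to 0.0655. The log2 fold change was −4.30 (SE 0.41, edgeR adjusted *p* = 8.13e-05), and ordered by fold change it stood 19th from the lowest among 1916 tested genes.

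In PROL *VCAM1* was again low in every DMD sample, at 13.9 to 21.0 CPM, against 141 to 293 CPM in WT PROL, with means of 17.1 ± 3.33 CPM in DMD PROL and 194 ± 68.4 CPM in WT PROL. Sample 2 of WT PROL was the highest of its group, as sample 2 was in WT DIFF. The log2 fold change in PROL was −3.52 (SE 0.25, edgeR adjusted *p* = 1.86e-07). The difference of the genotype effect between the states, −0.78 (SE 0.55), missed the threshold (edgeR adjusted *p* = 0.331), so the 19.2-fold gap in DIFF and the 11.4-fold gap in PROL were not shown to differ.

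By level *VCAM1* was highest in WT DIFF, then in WT PROL, DMD DIFF and DMD PROL. WT DIFF was above WT PROL in every sample, with a ratio of means of 2.52 and an increase of 1.31 on the log2 scale (edgeR adjusted *p* = 0.00168, SE 0.24). WT PROL and DMD DIFF did not overlap, but they differ in both genotype and state. In DMD SCs the states overlapped, and the log2 fold change between them was 0.55 (SE 0.43, edgeR adjusted *p* = 0.335). That value depended on single animals. Without both samples of DMD animal 1 it was −0.03 with an edgeR adjusted *p* of 0.968, and without sample 2 of DMD DIFF it was 0.89 with an edgeR adjusted *p* of 0.0438.

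Since the states of an animal share their source, the change between them was also taken within each animal, as log2 CPM in DIFF minus that in PROL. For *ITGB1* the DMD animals changed by 0.84, 0.45, 0.60 and 0.53, and the WT animals by −0.27, 0.18, −0.50 and −0.46. *ITGB1* thus was higher in DIFF in 4 of 4 DMD animals and in 1 of 4 WT animals. For *ITGB3* the DMD animals changed by 2.15, 0.32, 1.27 and 0.62, and the WT animals by −0.86, −0.30, −0.26 and −0.25. All 4 DMD animals moved up and all 4 WT animals down. In both genes the ranges of the genotypes did not overlap (exact permutation test, two-sided *p* = 0.0286 for each, the smallest that 4 against 4 animals can give). After Benjamini-Hochberg adjustment over the 3 genes this permutation *p* was 0.0429 for each, and it restates the lack of overlap. The share of all genes without such overlap was not taken. By edgeR, 23.4% of all tested genes were called for the difference between states. For *VCAM1* the WT animals moved up by 1.02 to 1.74, while the DMD animals ran from −0.87 in animal 2 to 1.60 in animal 1 (exact permutation test, two-sided *p* = 0.0857, the last of 3 such tests).

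**Figure D2:**
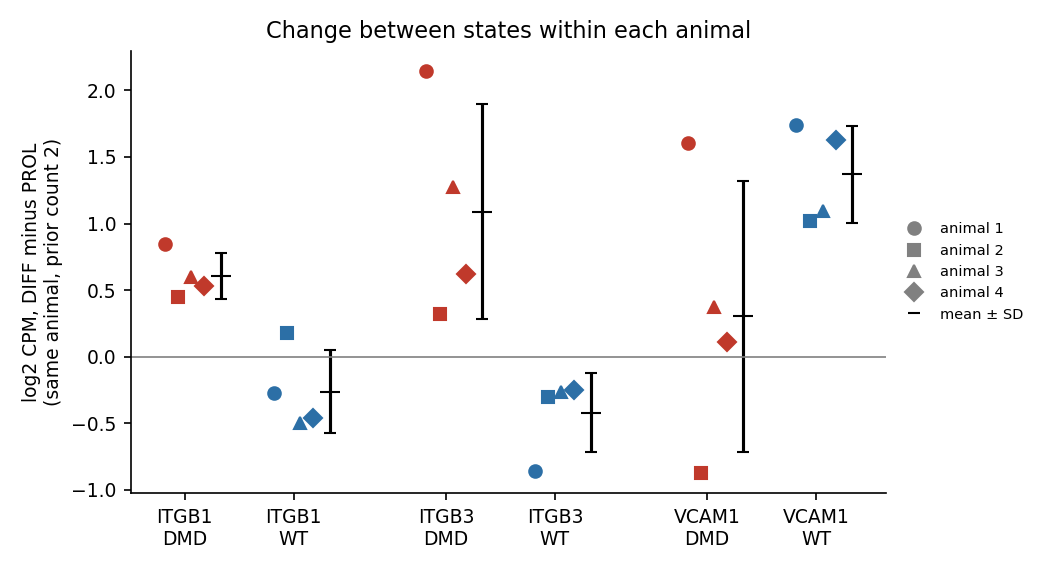
Change between states within each animal, as log2 CPM in DIFF minus log2 CPM in PROL (prior count 2), for the 3 genes in DMD and WT; each point is 1 animal and bars are the mean ± SD of 4 animals. DMD animals lie above 0 and WT animals below 0 for *ITGB3*, and animal 1 of DMD has the highest change of its group in all 3 genes; equal numbers in DMD and WT are different animals.

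The ratio of *ITGB3* to *ITGB1* was also taken within each library. It is used here to compare libraries and not the levels of both genes. In DIFF there were 1.61 ± 0.785 *ITGB3* CPM per 1000 *ITGB1* CPM in DMD SCs and 12.3 ± 3.65 in WT SCs. In PROL there were 0.957 ± 0.523 in DMD SCs and 13.8 ± 4.74 in WT SCs. The ratio was lower in DMD in both states, by −3.04 on the log2 scale in DIFF and by −3.81 in PROL, without overlap (exact permutation test, two-sided *p* = 0.0286 in each of 2 states, also after Benjamini-Hochberg adjustment). These log2 differences include a pseudocount of 0.5 CPM, and with 2 CPM they were −2.88 in DIFF and −3.43 in PROL. In DIFF every DMD sample had less *ITGB3* and more *ITGB1* than every WT sample, so the lack of overlap was fixed beforehand. In PROL the gap in *ITGB3* was wider than the spread of *ITGB1*. The ratio test thus adds no evidence beyond the levels of *ITGB3* and *ITGB1*.

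Technical duplicates show how far the counting of each transcript repeats. The absolute log2 ratio between the duplicates of a sample had a median of 0.10 for *ITGB1*, 0.26 for *VCAM1* and 0.41 for *ITGB3*. The highest value for *ITGB3*, 3.12, was that of sample 2 of DMD PROL, which had 4 counts. With the second duplicate alone, the difference between states in the genotype effect on *ITGB3* was 1.31 with an edgeR adjusted *p* of 0.13.

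Among the other genes of the integrin family, 10 of 26 listed subunits were in the table, and 4 were tested in DIFF. *ITGAV*, which encodes the alpha-V partner of the beta-3 subunit, had 53.9 ± 7.40 CPM in DMD DIFF, 58.2 ± 15.6 CPM in WT DIFF, 39.0 ± 13.6 CPM in DMD PROL and 44.3 ± 12.4 CPM in WT PROL. Its log2 fold change between genotypes was −0.12 in DIFF (SE 0.21, edgeR adjusted *p* = 0.683) and −0.21 in PROL (SE 0.26, edgeR adjusted *p* = 0.619). *ITGB8*, another beta subunit that pairs with alpha-V, had a log2 fold change between genotypes of −0.47 in DIFF (SE 0.45, edgeR adjusted *p* = 0.415). In WT SCs its value in DIFF against PROL was 1.60 (SE 0.61, edgeR adjusted *p* = 0.0442). This was the 1 integrin subunit called there, and none was called at a minimum count of 30, with halved counts, with either duplicate alone or without sample 1, 2 or 3 of WT DIFF or of WT PROL. The platelet partner *ITGA2B* had no count in either WT group. *ITGB2*, the beta subunit of leukocytes, had no count in DMD SCs and averaged at most 1.73 CPM in WT SCs.

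Proteins that bind the integrin tail or sit in focal adhesions were less well covered, with 6 of 41 listed genes in the table and 5 tested. In DIFF 3 were called higher in DMD SCs and 0 lower, with a list median of 1.13 on the log2 scale against −0.03 over all tested genes. Over all tested genes in DIFF, 16.1% were called higher and 17.5% lower in DMD SCs, and in PROL 8.36% higher and 9.87% lower. With 5 tested genes the list gives a count and no more. In the lists here and below, rose, fell, called higher and called lower refer to DMD SCs against WT SCs of the same state. *VCL*, which encodes vinculin, a link between talin and actin, rose by 1.13 (SE 0.12, edgeR adjusted *p* = 1.09e-06). *ACTN1*, which encodes the actin crosslinker alpha-actinin-1, rose by 1.87 (SE 0.26, edgeR adjusted *p* = 0.000206). *TES*, which encodes the focal adhesion protein testin, rose by 1.18 (SE 0.17, edgeR adjusted *p* = 1.77e-05). In PROL only *TES* among the 5 was called, at 0.99 (SE 0.16, edgeR adjusted *p* = 0.000415), and the list median was 0.03. The genotype effect was larger in DIFF than in PROL for *ACTN1* by 1.5 (SE 0.30, edgeR adjusted *p* = 0.000939) and for *VCL* by 1.10 (SE 0.18, edgeR adjusted *p* = 5.58e-05). These are 2 of the 5 tested, beside 10.5% of all tested genes called in that direction, and *ITGB1* showed the same direction. *LIMS1* and *CAV1* were not called in either state. *LIMS1* had −0.46 in DIFF (SE 0.13) and −0.59 in PROL (SE 0.13), and *CAV1* 0.23 (SE 0.11) and −0.30 (SE 0.10).

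Matrix and plasma ligands of integrins went both ways. Of 34 listed, 13 were in the table and 9 tested. In DIFF 4 were called higher and 3 lower in DMD SCs (list median 0.20), and in PROL 1 higher and 4 lower (list median −0.64, against 0.00 over all tested genes). The shares over all tested genes were 16.1% higher and 17.5% lower in DIFF, and 8.36% and 9.87% in PROL. *POSTN*, which encodes the matricellular protein periostin, fell by 5.93 on the log2 scale in DIFF (SE 0.22, edgeR adjusted *p* = 1.44e-09) and fell by 4.31 in PROL (SE 0.47, edgeR adjusted *p* = 0.000715). *COL3A1*, a fibrillar collagen, fell by 1.63 in DIFF (SE 0.11) and fell by 1.06 in PROL (SE 0.12). *FBN1*, which encodes the microfibril protein fibrillin-1, fell by 0.89 in DIFF (SE 0.12) and fell by 1.30 in PROL (SE 0.18). *COL1A2*, a chain of type I collagen, was called lower in PROL alone, at −0.64 (SE 0.09), and its value in DIFF was 0.20 (SE 0.11). *CCN2*, which encodes connective tissue growth factor, rose by 1.83 in DIFF (SE 0.22), and its value in PROL was −0.08 (SE 0.27). In DIFF the other ligands called higher in DMD SCs than in WT SCs were *SPP1*, *TNC* and *THBS1*. Their values were 5.26 (SE 0.77) for *SPP1*, which encodes osteopontin, 2.54 (SE 0.44) for *TNC* and 1.69 (SE 0.20) for *THBS1*. Their values in PROL were 0.66 (SE 0.38), 0.63 (SE 0.20) and −0.54 (SE 0.40), of which *TNC* alone was called.

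**Figure D3:**
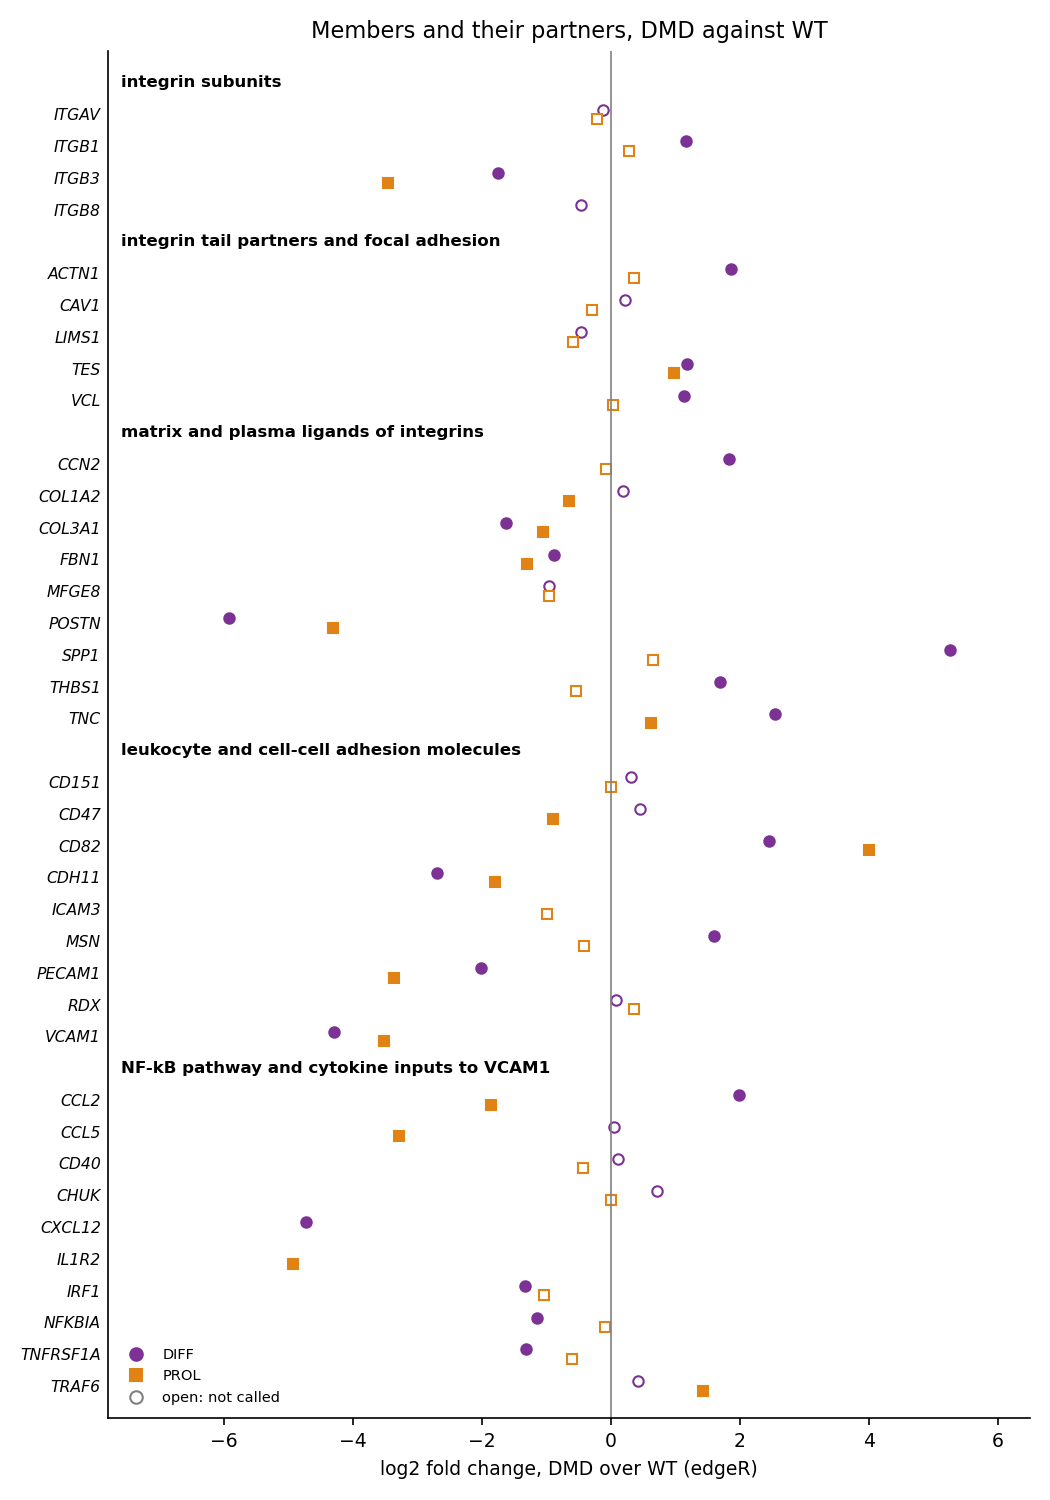
Log2 fold change of DMD over WT by edgeR for the 3 genes and for every tested gene of 5 lists (integrin subunits, integrin tail partners and focal adhesion, ligands, leukocyte and cell-cell adhesion, NF-κB pathway and cytokine inputs); circles are DIFF, squares PROL, and open symbols were not called. *ITGB3* and *VCAM1* lie left of 0 in both states, while *ITGAV* lies near 0 in both.

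Of 30 listed adhesion molecules of leukocytes and cell-cell contacts, *VCAM1* included, 15 were in the table. Calls in DIFF were higher in DMD SCs for 2 of 8 tested genes and lower for 3, and in PROL higher for 1 of 9 and lower for 4. Beside this, 16.1% of all tested genes were called higher and 17.5% lower in DIFF, and 8.36% and 9.87% in PROL. The list medians were 0.20 in DIFF and −0.90 in PROL, against −0.03 and 0.00 over all tested genes. *CDH11*, a cadherin of mesenchymal cells, fell by 2.69 in DIFF (SE 0.15) and fell by 1.80 in PROL (SE 0.16). *PECAM1*, the antigen used for depletion, fell by 2.01 in DIFF (SE 0.35) and fell by 3.37 in PROL (SE 0.53), at 1.88 to 38.2 CPM on average per group. *CD82*, a tetraspanin that serves as a surface marker of human satellite cells, rose by 2.46 in DIFF (SE 0.27) and by 4.00 in PROL (SE 0.27). *MSN*, which encodes moesin, a linker of membrane proteins to actin, rose by 1.59 in DIFF (SE 0.10), and its value in PROL was −0.41 (SE 0.11). *CD47*, an integrin-associated protein that binds thrombospondin, fell by 0.90 in PROL (SE 0.10), and its value in DIFF was 0.45 (SE 0.10).

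The pathway by which cytokines induce *VCAM1* in endothelium was looked at as well, with 23 of 33 listed genes in the table. Calls in DIFF were higher in DMD SCs for 1 of 9 tested genes and lower for 4, and in PROL higher for 1 of 9 and lower for 3. Over all tested genes these shares were 16.1% and 17.5% in DIFF, and 8.36% and 9.87% in PROL. The list medians were 0.05 in DIFF and −0.60 in PROL, against −0.03 and 0.00 over all tested genes. The TNF receptor *TNFRSF1A* fell by 1.31 in DIFF (SE 0.15), and its value in PROL was −0.60 (SE 0.15), just short of the limit. *NFKBIA*, an inhibitor of NF-κB and itself a target of it, fell by 1.14 in DIFF (SE 0.21), and its value in PROL was −0.09 (SE 0.22). The chemokine *CXCL12* fell by 4.73 in DIFF (SE 0.60) and was not tested in PROL. *CCL2*, a chemokine for monocytes, was called in both states with opposite signs, at 1.98 in DIFF (SE 0.24) and −1.85 in PROL (SE 0.33). *VCAM1* was lower in DMD SCs in both. In PROL the chemokine *CCL5* fell by 3.28 (SE 0.48), the decoy receptor *IL1R2* fell by 4.94 (SE 0.81), and the adaptor *TRAF6* rose by 1.42 (SE 0.49). *IL1R2* had 2 counts in all of DMD PROL and 74 in WT PROL, so the size of its change is uncertain. *TNF* itself had no count.

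Over the 16 libraries, each gene was compared with the 2030 genes that passed the filter over 4 groups, by Pearson's *r* of log2 CPM. Nearest to *VCAM1* were *MMP2* (*r* = 0.95), which encodes a matrix metalloproteinase, *DCN* (*r* = 0.95), which encodes the proteoglycan decorin, and *FOLR1* (*r* = 0.94), a folate receptor. Nearest to *ITGB3* were the transcription factor gene *GATA2* (*r* = 0.93), the protease inhibitor *SLPI* (*r* = 0.91) and *TMEM59L* (*r* = 0.91). Nearest to *ITGB1* were *TMEM189* (*r* = 0.93), the glycolytic enzyme *PGK1* (*r* = 0.91) and *TMEM85* (*r* = 0.90). *ITGB3* and *VCAM1* were alike (*r* = 0.89), and *ITGB1* ran opposite to *VCAM1* (*r* = −0.78) and to *ITGB3* (*r* = −0.54). The 16 points come from 8 animals in 4 groups, so these values describe the group pattern and were not tested.

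Marker levels of other cells also differed between the groups. In these bulk samples fewer cells of a type and less RNA per cell cannot be told apart. Of 13 fibroblast markers, 7 were in the table, all with counts in every group. Their sum was 9775 to 13101 CPM in DMD DIFF, 21986 to 25088 CPM in WT DIFF, 4215 to 4667 CPM in DMD PROL and 8429 to 10189.9 CPM in WT PROL. *VCAM1* and this sum were both higher in WT in each state, and *DCN* is one of its markers. Their order over the groups differed. The median sum was 11727 CPM in DMD DIFF and 9827 CPM in WT PROL, where *VCAM1* averaged 25.5 CPM and 194 CPM. The largest part of the sum was *COL1A2*, with means of 9109 CPM in DMD DIFF and 5017 CPM in WT PROL. *FBN1* (339 and 175 CPM) was also higher in DMD DIFF, while *COL3A1* (1570 and 1556 CPM) and *THY1* (6.80 and 6.09 CPM) were close. *DCN* (385 and 1665 CPM), *POSTN* (24.1 and 885 CPM) and *LUM* (148 and 265 CPM) were lower in DMD DIFF. Of 14 endothelial markers, 6 were in the table, with sums of 33.8 to 50.5 CPM in DMD DIFF, 79.9 to 124 CPM in WT DIFF, 16.0 to 35.0 CPM in DMD PROL and 146 to 163 CPM in WT PROL. Of these, *ERG* averaged 19.3 CPM in DMD PROL against 105 CPM in WT PROL, *ENG* 4.63 CPM against 28.7 CPM for WT PROL, and *PECAM1* 1.88 CPM against 19.8 CPM for WT PROL. These 3 genes were called lower in DMD PROL. *VWF*, *SELE* and *CLDN5* averaged at most 0.685 CPM in any group, and all were at 0 in WT PROL.

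Of 15 leukocyte markers, 10 were in the table, with sums of 30.8 to 35.6 CPM in DMD DIFF, 59.0 to 75.8 CPM in WT DIFF, 33.3 to 54.8 CPM in DMD PROL and 44.7 to 85.9 CPM in WT PROL, and *CD3E* and *CD8A* were at 0 in all groups. Of 9 platelet markers, 4 were in the table, with sums of 1.17 to 1.44 CPM in DMD DIFF, 0 to 3.70 CPM in DMD PROL and no count in WT SCs of either state. Of 10 markers of pericytes and smooth muscle, 4 were in the table, all with counts in every group. Their sum was 10595 to 12832 CPM in DMD DIFF, 716 to 1711 CPM in WT DIFF, 746 to 921 CPM in DMD PROL and 677 to 1171 CPM in WT PROL. Most of the sum was *ACTA2*, with a mean of 11661 CPM in DMD DIFF and 999 CPM in WT DIFF. The pericyte marker *RGS5* had another order, with means of 4.30 CPM in DMD DIFF, 5.82 CPM in WT DIFF, 4.91 CPM in DMD PROL and 105 CPM in WT PROL, and fell by 4.40 in PROL (SE 0.77). The part of fibroblasts, endothelium, leukocytes, platelets, pericytes and smooth muscle, or of the myoblast share, in the differences of *ITGB1*, *ITGB3* and *VCAM1* was not tested.

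**Figure D4:**
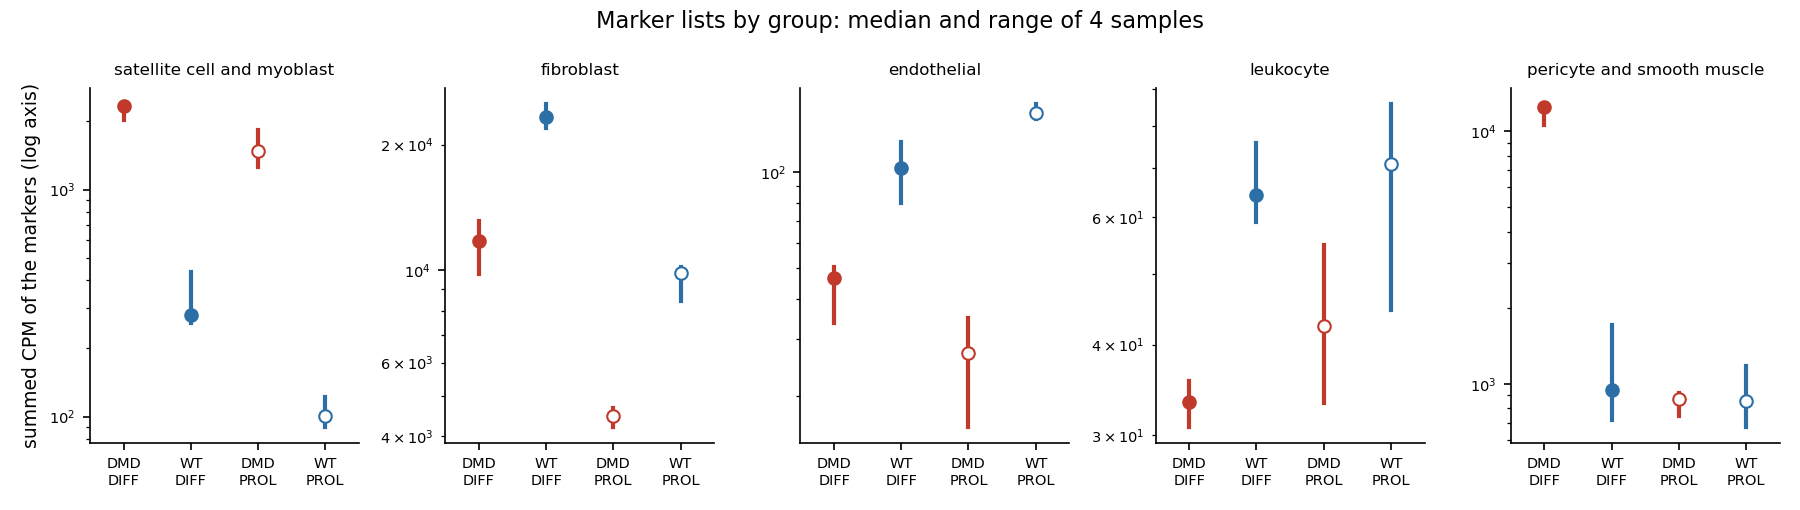
Summed CPM of the markers of 5 cell types (log axis, a separate scale in each panel) in DMD DIFF, WT DIFF, DMD PROL and WT PROL; points are the median and lines the range of 4 samples. The sum of myoblast markers is higher in DMD in both states, and within each state the sums of fibroblast and endothelial markers are higher in WT.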

How the data were processed

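Per the labels and methods, the authors made 3′ libraries with unique molecular identifiers from 25 ng of total RNA, each sample as a technical duplicate. Reads were aligned with STAR 2.7.10b to susScr3, and the processing notes also name bcl2fastq, FastQC, MultiQC and R 4.1.2. The annotation and strand setting are not given in the sources used here. The deposited values are raw counts per gene in 32 columns, without normalization. All 124000 values are even.

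Duplicates were added per sample. Of the gene names, 3502 were current symbols and 204 older ones. The test was that of edgeR 4.0.16 under R 4.3.3 (filterByExpr with minimum count 10 and minimum total 15, TMM, robust glmQLFit, glmQLFTest) on the 8 samples of a comparison, or on all 16 for the difference between states. Adjusted *p* are Benjamini-Hochberg values over all tested genes. The SE is the size of the log2 fold change over the root of its F value. CPM used TMM over 16 libraries, with a prior count of 2 on the log2 scale, and the ratio of *ITGB3* to *ITGB1* a pseudocount of 0.5 CPM. Few counts limit precision, as the counting intervals show. Simulated data were used to check the fits. Of 100 genes given a change of 1 on the log2 scale, 74 to 76 were called with the right sign in the comparisons of 8 samples. For the difference between states 50 were, so a change of that size can be missed there. Of the unchanged genes, 4 to 10 were called per comparison.

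Groups came from the labels. The samples of a number within a genotype come from the same animal, and their deviations correlated at 0.0998 to 0.172. Within its genotype, each of the 8 PROL samples correlated best with the DIFF sample of its own animal. Equal numbers across genotypes gave −0.0274 to 0.0993, so the margin was small. Numbers across genotypes name different animals. Alternatives covered scaling (RLE, library size alone, without *RN18S*), filters, DESeq2 1.42.0, a likelihood ratio test, single duplicates, the replicate block and left-out samples. Leaving out both samples of an animal was added after seeing the data.

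The members and lists were chosen with earlier results of these data known. Named were the 3 members, *DMD*, the antigens of the sort, every tested integrin subunit, at most 4 called genes with the smallest *p* per list and genotype comparison, and the 3 genes most alike to each member. Other genes are named as list markers, among them those without a count. *SPP1*, *TNC* and *THBS1* are named as further called ligands, and *LIMS1* and *CAV1* as the uncalled genes of the focal adhesion list. The proteome of the study was not used here.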

Additional observations from a re-analysis of the deposited data

Results flagged for a closer look

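The genotype effect differed between the states for *ITGB1* and *ITGB3*, where 23.4% of all tested genes were called for this difference. For *ITGB1* the log2 fold change of DMD over WT was greater in DIFF than in PROL by 0.88 (edgeR adjusted *p* = 0.000719), with 4 of 4 DMD animals higher in DIFF and 1 of 4 WT animals. For *ITGB3* it was less negative in DIFF than in PROL by 1.71 (edgeR adjusted *p* = 0.0186), with 4 of 4 DMD animals higher in DIFF and 0 of 4 WT animals. The DMD side of *ITGB3* rests on 4 to 26 counts per sample.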

How the results depend on the processing

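Of 487 recomputed values of the 3 genes and of the counts of members called, 452 kept their direction and their side of the threshold. In the genotype comparisons all 20 alternatives of each gene did so. Among them, the replicate block paired different animals by number there, so it has no meaning as a pairing in these comparisons. In DMD SCs, *ITGB3* in DIFF against PROL was called by edgeR without a filter (1.31, adjusted *p* = 0.0421), by the likelihood ratio test (1.31, adjusted *p* = 0.0307), with the replicate block (1.31, adjusted *p* = 0.0372) and in the fit of all 16 samples (1.31, adjusted *p* = 0.0192), and *ITGB1* with the first duplicate alone (0.61, adjusted *p* = 0.00058), each of which gave 1 member called. With samples left out, the values there ran from 0.50 to 0.65 for *ITGB1*, from 0.95 to 1.64 for *ITGB3* and from −0.03 to 0.89 for *VCAM1*, and from 0 to 3 members were called. *VCAM1* changed sign there without both samples of DMD animal 1, at −0.028, and 3 members were called without sample 2 of DMD DIFF. With library size alone in place of TMM, *ITGB1* (−0.65) and *ITGB3* (−0.77) were called in DIFF against PROL in WT SCs, which made 3 members called. That scaling moved the median of all genes to −0.32 there, against 0.03 with TMM, to −0.15 in PROL, to 0.10 in DIFF and to 0.25 for the difference between states, and the share of higher calls to 25.6%, 31.6%, 59.2% and 74.3%, against 55.5%, 45.85%, 47.9% and 44.75% with TMM. The difference between states for *ITGB3* was lost with the second duplicate alone (1.31, 1 member called) and ran from 1.36 to 2.04 with samples left out, with 1 to 2 members called. The log2 difference of the ratio of *ITGB3* to *ITGB1* ran from −4.07 to −3.53 in PROL and from −3.27 to −2.55 in DIFF with samples left out, where 3 against 4 cannot go below an exact permutation *p* of 0.0571. With a pseudocount of 2 CPM it was −3.43 in PROL and −2.88 in DIFF. The replicate block changed no other call of the 3 genes. Depth limits *ITGB3* most, since DMD PROL had 32 counts in all.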
